A study of Homo sapiens with 2 samples.

Results

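Genes of the MAP kinase cascade and of the dual specificity phosphatases (DUSPs) that switch it off were compared between 2 arrays of UACC62 cells, an established human melanoma line. One array held RNA of cells transfected with non-targeting siRNA (control siRNA, 1 array). The other held RNA of cells transfected with siRNA against FOSL1 (FOSL1 siRNA, 1 array), a FOS family protein that forms the transcription factor AP-1 with JUN proteins. Both cultures were grown in DMEM with serum and harvested on day 3, and the sources used here do not give the number of siRNA sequences behind either treatment. The genes were those whose symbol began with MAPK, MAP2K, MAP3K, MAP4K or DUSP and had no hyphen, with the probe set of highest mean standing for a gene. This gave 72 of the 14884 named genes, 48 of the cascade and 24 DUSPs.

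Each value was 1 deposited number per probe set and array, taken as a log2 intensity. A gene passed the filter on dim genes when its mean over both arrays was at least 8.02, the median of named genes. By this filter 53 of the 72 genes passed, 36 of the cascade and 17 DUSPs, and 19 were dim. The difference is the log2 value with FOSL1 siRNA minus that with control siRNA, so a negative value means less signal after FOSL1 depletion. Because each condition had 1 array, no test was possible and no difference had a replicate check; the values describe these 2 arrays. A second probe set gave the only spread at hand: over 195 genes with at least 2 different probe sets past the filter, the SD of a difference between probe sets of a gene was 0.177. That spread leaves out variation between cultures.

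MAP kinase cascades pass a signal through kinases arranged in tiers: a MAP4K or a small GTPase acts on a MAP3K, which phosphorylates a MAP2K, which phosphorylates a MAP kinase on a threonine and a tyrosine. The ERK arm answers mainly to growth factors and is a central driver of melanoma growth, the ERK5 arm runs through MEK5, and the JNK and p38 arms answer mainly to stress and cytokines. Classical DUSPs, also called MAP kinase phosphatases, remove both phosphates, and several of them are transcribed in response to the same cascades, which makes them feedback inhibitors. Atypical DUSPs lack the MAP kinase binding domain of the classical ones, and many act on other substrates.

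FOSL1 itself was 2.88-fold lower on the FOSL1 siRNA array, at 10.38 against 11.90. In RNA of a whole culture, a difference in every cell and one in a share of the cells cannot be told apart. Of 12 named melanocyte markers, 8 passed the filter, among them S100B, TYR, SOX10 and MITF, whereas PMEL, TYRP1, OCA2 and GPR143 were dim. Of these 8, MLPH (-0.41), S100A1 (-0.40) and TYR (-0.34) were lower and MITF (0.36) and PAX3 (0.34) higher by more than 0.32 log2 units. The value of MLPH with FOSL1 siRNA, 7.92, lay under the filter, so MLPH passed through the control array, where it was higher. The part of marker levels in the differences described here was not tested. Of 12 named markers of epithelia, leukocytes, endothelium and fibroblasts, KDR, LUM and CD68 passed the filter, with differences of 0.19, 0.48 and -0.63. The keratins, EPCAM, PECAM1 and VWF were dim. So were DCN (4.15 with control siRNA and 3.97 with FOSL1 siRNA) and CSF1R (7.93 and 7.42). Across the 7442 genes past the filter the difference went with gene span, the length of the gene in RefSeq (Pearson r = 0.328 across genes, as a description, since genes are not independent). The median difference was -0.11 for genes under 10 kb and 0.09 for genes of 100 kb or more.

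Most of the genes lay close to 0, with a few lower and fewer higher. The median difference of the 53 genes was -0.05, against -0.0008 over all 7442 genes past the filter, and 33 of 53 (62.3%) lay below 0, against 50.1% of all genes. At least 1.5-fold lower were DUSP10 and MAP2K2, 2 of 53, against 0.766% of all genes that passed the filter. None, 0 of 53, was at least 1.5-fold higher, against 1.13% of all genes. A smaller threshold of 0.32 log2 units in size was used as well, since few genes of these arrays passed 1.5-fold. By it, 7 of 53 were lower (13.2%), against 5.91% of all genes, and 2 were higher (3.77%), against 7.38%. The 7 were DUSP10, MAP2K2, DUSP14, MAP3K9, DUSP23, MAPK12 and DUSP18, and the 2 were MAP2K5 and MAP3K5. The genes just outside this threshold were DUSP9 and MAP3K10, both 1.23-fold lower, and the gene just inside was DUSP18, 1.27-fold lower. In 32 of the 53 genes the difference was smaller than the SD between probe sets.

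**Figure D1:**
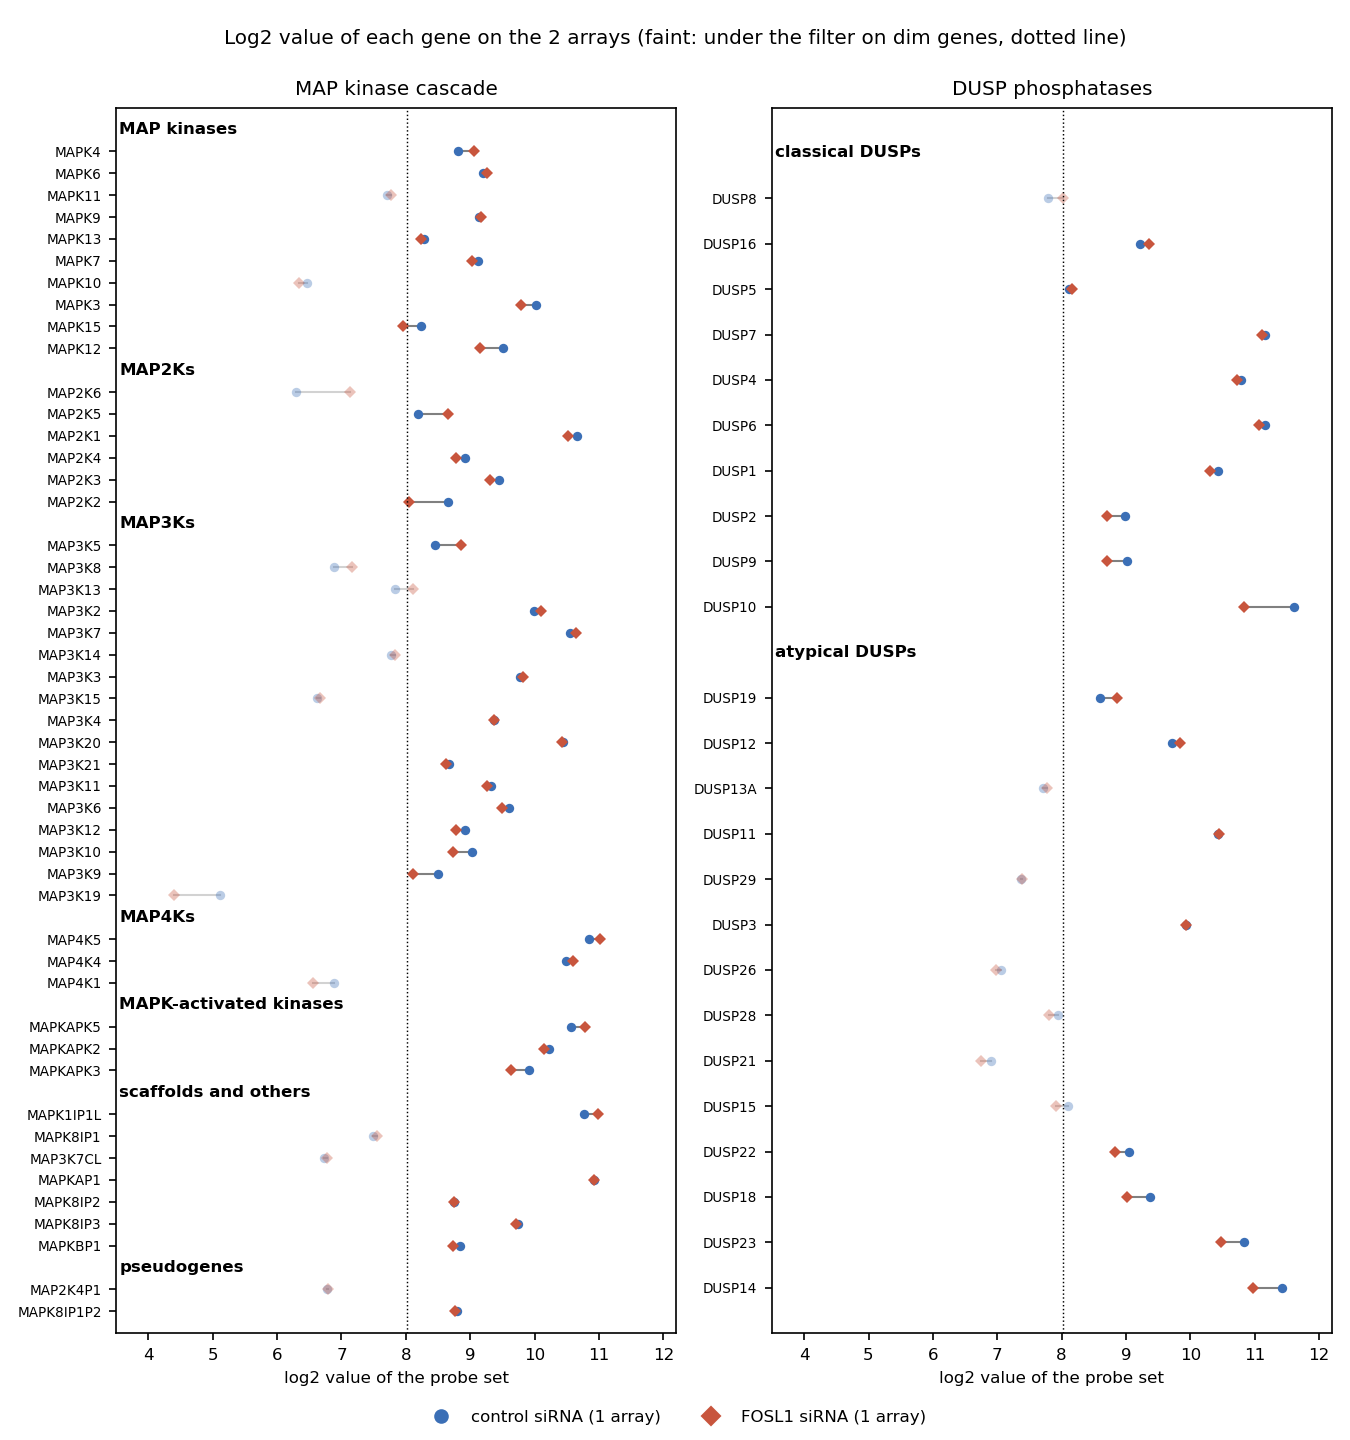
Log2 value of the probe set of each of the 72 genes (x axis) with control siRNA (circles, 1 array) and with FOSL1 siRNA (diamonds, 1 array), by role; faint symbols are the 19 dim genes and the dotted line is the filter at 8.02. Lines join the arrays, and the longest line among genes past the filter is that of DUSP10, from 11.61 to 10.83; levels of different genes cannot be compared on this scale.

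Of the 10 classical MAP kinase phosphatases, 9 passed the filter, and their median difference was -0.09 with 7 below 0. DUSP10, also called MKP5, which inactivates p38 and JNK rather than ERK, stood out. Its log2 value was 11.61 on the control array and 10.83 on the FOSL1 siRNA array. The difference of -0.78, 1.72-fold lower, ranked 11 from the lowest among the 7442 genes. DUSP16 (MKP7), of the same JNK and p38 group, had 9.22 and 9.36, so it lay on the other side at 0.14. DUSP8, the remaining phosphatase of that group, was dim, with 7.78 and 8.02.

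The classical phosphatases that serve as feedback of the ERK arm had nearly the same value on both arrays. DUSP6 (MKP3), the cytoplasmic ERK phosphatase, had 11.15 and 11.07. DUSP4 (MKP2), a nuclear one, had 10.78 and 10.73, and DUSP5, a nuclear phosphatase of ERK, had 8.11 and 8.16. These differences, -0.09, -0.05 and 0.05, were all smaller than the SD between probe sets. The dimmer probe set of DUSP5 was under the filter and gave -0.26. DUSP7, a cytoplasmic relative of DUSP6, had 11.16 and 11.12. DUSP1 (MKP1), an early response phosphatase of p38, JNK and ERK, had 10.43 and 10.31. The lower members of the class were DUSP9 (MKP4), with 9.01 and 8.71, and DUSP2 (PAC1), best known from lymphocytes, with 8.98 and 8.70. Both lay within 0.32 log2 units.

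Of the 14 atypical DUSPs, 8 passed the filter, with 4 on each side of 0. They spread from -0.46 to 0.26, and their median was -0.11. DUSP14 (MKP6), a small phosphatase known to restrain T cell receptor and TAK1 signalling, had 11.43 with control siRNA and 10.97 with FOSL1 siRNA, 1.37-fold lower. DUSP23, one of the smallest DUSPs, had 10.84 and 10.47, 1.29-fold lower. DUSP18, which can localise to mitochondria, had 9.37 and 9.02, 1.27-fold lower. DUSP22 (JSP1), linked to JNK signalling, had 9.04 and 8.83. DUSP19, also linked to JNK, lay on the other side with 8.60 and 8.86, 1.20-fold higher. DUSP12 had 9.72 and 9.84. DUSP3 (VHR), which acts on ERK and JNK, and DUSP11, an RNA phosphatase of the nucleus, differed by 0.00 and 0.03. The 6 dim genes of this class (DUSP13A, DUSP15, DUSP21, DUSP26, DUSP28 and DUSP29) lay between -0.20 and 0.06.

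The ERK arm was represented by both MEKs and by ERK1, and all 3 lay below 0. MAP2K2 (MEK2) had 8.65 on the control array and 8.04 on the FOSL1 siRNA array, a difference of -0.61 and 1.53-fold lower, at rank 48 from the lowest of 7442. Its value with FOSL1 siRNA was close to the filter. MAP2K1 (MEK1), which shares its substrates, had 10.66 and 10.52, a difference of -0.14. MAPK3 (ERK1) had 10.02 and 9.79, a difference of -0.23. Thus MEK2 passed 1.5-fold, whereas the difference of MEK1 was smaller than the probe set SD.

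In the ERK5 arm the MAP2K was higher with FOSL1 siRNA, whereas its MAP kinase had no clear direction. MAP2K5 (MEK5), the activator of ERK5, had 8.19 with control siRNA and 8.65 with FOSL1 siRNA. The difference of 0.46, 1.37-fold higher, was the highest of the 53 genes and ranked 217 from the highest of 7442. MAPK7 (ERK5) had 9.13 and 9.03, a difference smaller than the SD between probe sets and at -0.0013 without the trend on span given above. The MEKKs known to act on MEK5, MAP3K2 (MEKK2) and MAP3K3 (MEKK3), differed by 0.11 and 0.04.

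The genes of the arms that carry stress signals lay mostly just below 0. Past the filter, 10 genes were assigned to the JNK and p38 arms below the MAP3K tier, with scaffolds, MAPKAPK2 and MAPKAPK3 included. Of these, 9 were below 0 and 1 above, against 50.1% of all genes below 0. Their median was -0.10, and they ranged from -0.36 to 0.03. Only MAPK12 and MAPKAPK3 (-0.27) differed by more than the SD between probe sets. The assignment was made with their values known. MAPK12 (p38 gamma) was the lowest, with 9.51 and 9.15, 1.28-fold lower. MAPK13 (p38 delta) had 8.28 and 8.23, and MAPK11 (p38 beta) was dim with 7.71 and 7.77. MAPK9 (JNK2) had 9.13 and 9.16, and MAPK10 (JNK3), mostly a neural kinase, was dim. Of the MAP2Ks of these arms, MAP2K3 (MKK3, for p38) had 9.45 and 9.30, a difference of -0.15. MAP2K4 (MKK4, for JNK and p38) had 8.91 and 8.77, a difference of -0.14. The other p38 activator, MAP2K6 (MKK6), was dim, with 6.29 with control siRNA and 7.13 with FOSL1 siRNA, 1.79-fold higher. Its difference of 0.84 was the largest of all 72 genes in size, but both values lay under the filter. JNK1, p38 alpha and MKK7 (MAPK8, MAPK14 and MAP2K7) were not analysed here.

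Kinases activated by MAP kinases followed no single direction. MAPKAPK3 (MK3), a p38 substrate, had 9.91 and 9.64, and its close relative MAPKAPK2 (MK2), which regulates cytokine mRNA stability, had 10.23 and 10.14. MAPKAPK5 (MK5), a partner of ERK3 and ERK4, had 10.57 and 10.78. The atypical MAP kinases themselves were MAPK4 (ERK4), with 8.81 and 9.07, MAPK6 (ERK3), with 9.20 and 9.27, and MAPK15 (ERK8), with 8.24 and 7.96. The value of MAPK15 with FOSL1 siRNA lay under the filter, so MAPK15 passed through the control array, where it was higher. Its 2 probe sets gave -0.28 and -0.17, the second by a dimmer probe set under the filter. None of these 6 genes reached 0.32 log2 units.

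**Figure D2:**
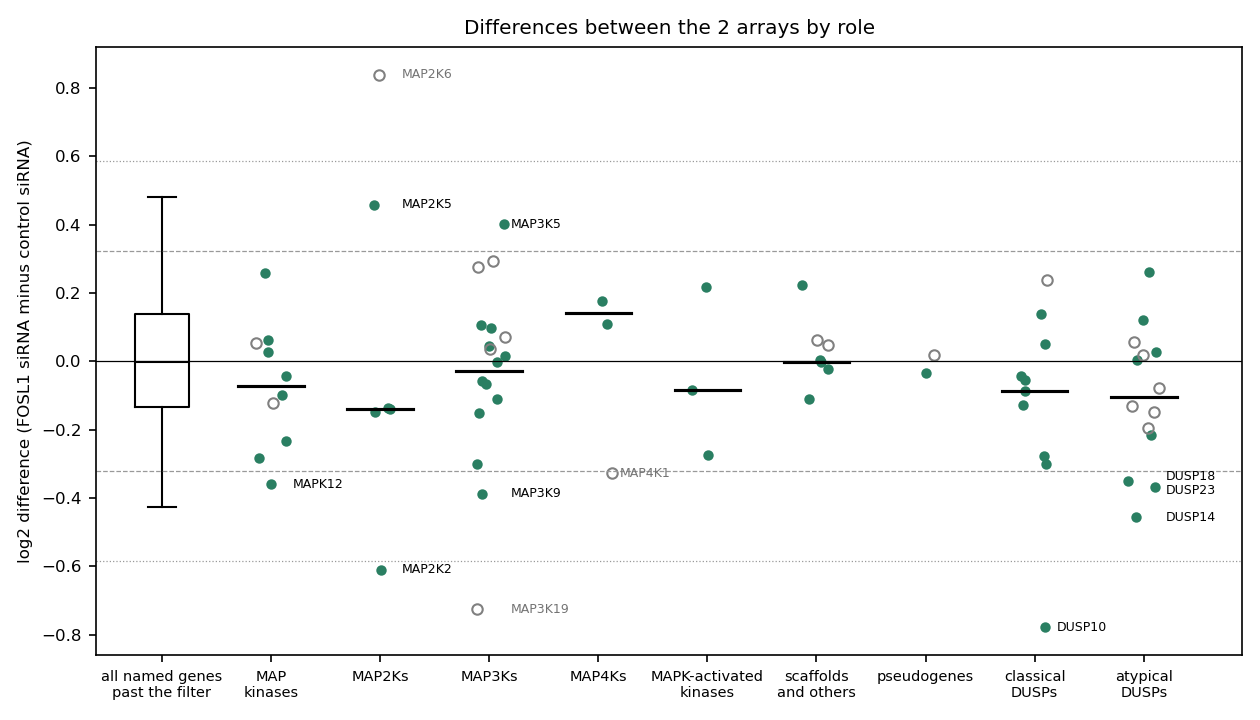
Log2 difference (FOSL1 siRNA minus control siRNA, y axis) of each gene by role, with filled points for genes past the filter, open points for dim genes and bars for the median of the filled points; the box shows the quartiles and the whiskers the central 95% of all 7442 genes past the filter. Dashed lines mark 0.32 log2 units and dotted lines 1.5-fold; DUSP10 at -0.78 and MAP2K2 at -0.61 are the filled points below the lower dotted line.

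Of the 17 MAP3Ks, 12 passed the filter, with 7 below 0, 5 above and a median of -0.03. MAP3K5 (ASK1), an oxidative stress sensor that feeds JNK and p38, had 8.46 with control siRNA and 8.86 with FOSL1 siRNA, 1.32-fold higher. Its relative MAP3K6 (ASK2) had 9.61 and 9.50. MAP3K9 (MLK1), a mixed lineage kinase upstream of JNK, had 8.50 and 8.11, 1.31-fold lower. The mixed lineage family past the filter (MAP3K9, MAP3K10, MAP3K11, MAP3K12, MAP3K20 and MAP3K21) lay between -0.39 and -0.00, so its highest member, MAP3K20 (ZAK), had no direction. A further member, MAP3K13 (LZK), was dim and lay on the other side at 0.28. This family was singled out after its values were seen. MAP3K10 (MLK2) had 9.03 and 8.73, MAP3K12 (DLK) had 8.92 and 8.77, and MAP3K11 (MLK3) had 9.32 and 9.26. MAP3K7 (TAK1), the kinase that joins TGF-beta and cytokine receptors to JNK, p38 and NF-kB, had 10.54 and 10.64. MAP3K4 (MEKK4) differed by 0.01.

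The dim MAP3Ks included MAP3K8 (COT or TPL2), a kinase that can activate MEK in place of RAF, with 6.88 and 7.17. MAP3K13 had 7.83 and 8.11, and MAP3K14 (NIK), of the alternative NF-kB pathway, had 7.77 and 7.84. MAP3K19, among the dimmest, had 5.12 and 4.39, 1.65-fold lower. Together with MAP2K6 it made up the dim genes at least 1.5-fold apart, 1 of 19 in each direction, where 2.69% of all 7442 dim genes were higher and 2.10% lower. MAP4K1 (HPK1), a blood cell kinase, was dim as well, with 6.89 and 6.56, a difference of -0.33. The 16 dim genes other than MAP2K6, MAP3K19 and MAP4K1 lay between -0.20 and 0.29. The MAP4Ks past the filter were MAP4K4 (HGK), with 10.49 and 10.59, and MAP4K5, with 10.85 and 11.02.

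Scaffold and other genes that carry the symbol stem lay within 0.32 log2 units. MAPK8IP2 and MAPK8IP3 (JIP2 and JIP3), which assemble JNK modules on motor cargo, differed by -0.00 and -0.02, and JIP1 (MAPK8IP1) was dim. MAPKBP1, a JNK binding protein, gave -0.11 and -0.05 by its 2 probe sets, the second by a dimmer probe set under the filter. MAPK1IP1L gave 0.22 and 0.30 by its 2 probe sets, the same direction on both. MAPKAP1, the SIN1 subunit of the kinase complex mTORC2 and not a MAP kinase, differed by 0.00. The pseudogene MAPK8IP1P2 resembles MAPK8IP1, so its value of -0.03 is uncertain.

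Gene span moved with these differences. Among the 53 genes the difference had a Pearson correlation of 0.384 with log10 span, and a Spearman correlation of 0.435, as a description across genes measured on the same arrays. Of the 12 genes under 10 kb, 11 lay below 0, with a median of -0.18, and of the 10 genes of 100 kb or more, 3 did, with a median of 0.06. The highest genes were long: MAP2K5 spans 264 kb and MAP3K5 236 kb. The lowest were DUSP10 (40.7 kb), MAP2K2 (33.8 kb), DUSP14 (24.9 kb) and MAP3K9 (87.0 kb), followed by DUSP23 (1.58 kb) and MAPK12 (8.78 kb). The median span of the 53 genes was 30.5 kb. When the trend on span over all genes was removed, DUSP10 stayed at -0.80, MAP2K2 at -0.62, DUSP14 at -0.45, MAP3K9 at -0.45 and MAP2K5 at 0.37. By the same step DUSP23 (-0.24), MAPK12 (-0.28), DUSP18 (-0.31) and MAP3K5 (0.31) came to lie within 0.32 log2 units. The median of the 17 DUSPs past the filter was -0.09 before and -0.01 after the step, and that of the 36 cascade genes was -0.04 and -0.05. The DUSPs past the filter had a median span of 13.6 kb and the cascade genes 58.2 kb.

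**Figure D3:**
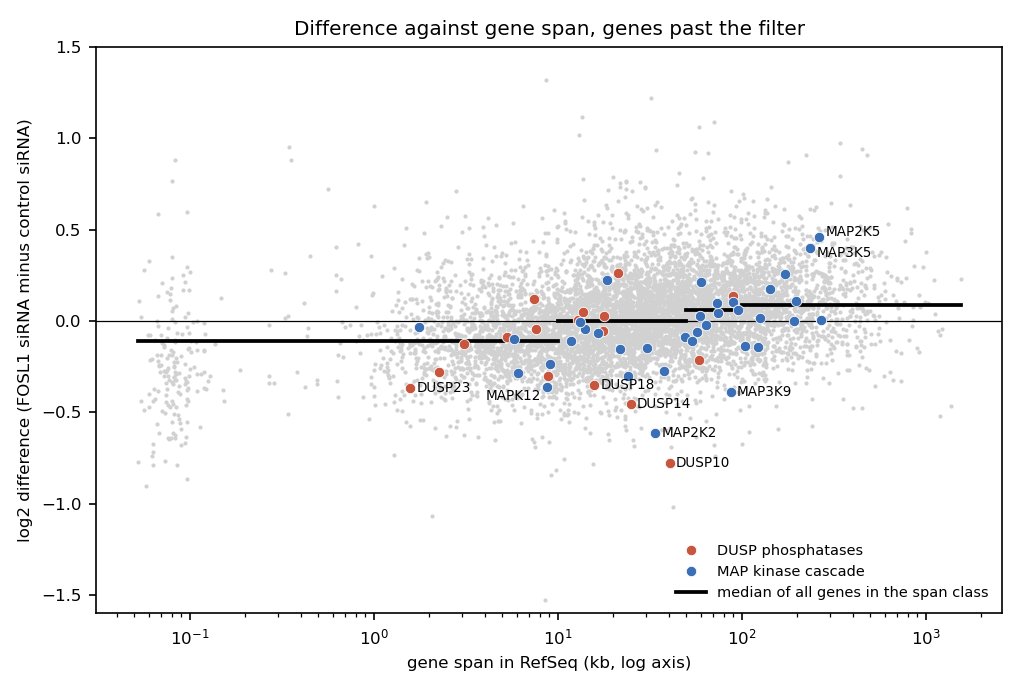
Log2 difference (y axis) against gene span in kb (log axis) for all 7442 genes past the filter (grey), the 17 DUSPs and the 36 cascade genes; black bars are the median of all genes in 4 span classes. The bars run from -0.11 under 10 kb to 0.09 at 100 kb or more, and DUSP10 (40.7 kb) and MAP2K2 (33.8 kb) lie far below the bar of their class, at -0.0016.

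The start regions of the genes were searched for the AP-1 motif TGANTCA, the site that FOSL1 binds with JUN proteins, and for the core TGACGT of the cyclic AMP response element, on both strands. The AP-1 pattern, in which N is any base, reads the same on both strands, and overlapping core matches were counted once. Of the 72 genes, 60 had an entry in the RefSeq promoter table (GRCh38.p14) by gene ID, with 83 promoters that run from 250 bases before to 50 after a start. AP-1 letters stood in 3 of the 83 (3.61%), those of MAP2K3, MAP3K8 and 1 start of MAPK10, against 7.71% of all 35116 promoters. The core stood in 9 (10.8%), against 7.98% of all. The median GC content was 69.3%, against 58.7% over all promoters. A match is a description of letters and not of binding, and the absence of a match says only that the letters are not in this window.

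The promoters of DUSP10, MAP2K2 and MAP2K5 are shown because these were the genes with the lowest and highest differences past the filter, MAP2K3 because it was the gene past the filter with AP-1 letters, and DUSP1 because it passed the filter and holds the core 2 times. Each is given from the outermost start of the gene, 5′ to 3′ on the strand of the gene, from GRCh38.p14, with AP-1 or core matches in capitals. The positions are chr1:221742040-221742339 on the minus strand for DUSP10, chr19:4124073-4124372 on the minus strand for MAP2K2, chr15:67542453-67542752 on the plus strand for MAP2K5, chr17:21284461-21284760 on the plus strand for MAP2K3 and chr5:172771146-172771445 on the minus strand for DUSP1.
DUSP10: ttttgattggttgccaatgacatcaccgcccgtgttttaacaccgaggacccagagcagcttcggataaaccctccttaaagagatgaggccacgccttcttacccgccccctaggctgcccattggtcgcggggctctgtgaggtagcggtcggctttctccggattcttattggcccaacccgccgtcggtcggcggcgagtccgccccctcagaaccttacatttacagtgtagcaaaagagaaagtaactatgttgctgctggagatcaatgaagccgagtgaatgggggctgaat
MAP2K2: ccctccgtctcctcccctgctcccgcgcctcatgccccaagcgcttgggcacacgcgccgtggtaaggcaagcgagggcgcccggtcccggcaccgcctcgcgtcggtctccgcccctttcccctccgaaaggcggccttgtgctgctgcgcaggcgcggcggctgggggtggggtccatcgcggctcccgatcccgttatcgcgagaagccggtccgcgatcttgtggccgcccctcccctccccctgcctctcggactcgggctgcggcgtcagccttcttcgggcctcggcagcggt
MAP2K5: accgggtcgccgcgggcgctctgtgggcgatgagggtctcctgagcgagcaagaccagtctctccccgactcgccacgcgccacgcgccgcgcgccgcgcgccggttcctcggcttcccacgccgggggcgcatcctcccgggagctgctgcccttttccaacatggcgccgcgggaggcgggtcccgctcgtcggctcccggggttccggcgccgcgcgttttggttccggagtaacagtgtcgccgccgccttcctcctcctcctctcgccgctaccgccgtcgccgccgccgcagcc
MAP2K3: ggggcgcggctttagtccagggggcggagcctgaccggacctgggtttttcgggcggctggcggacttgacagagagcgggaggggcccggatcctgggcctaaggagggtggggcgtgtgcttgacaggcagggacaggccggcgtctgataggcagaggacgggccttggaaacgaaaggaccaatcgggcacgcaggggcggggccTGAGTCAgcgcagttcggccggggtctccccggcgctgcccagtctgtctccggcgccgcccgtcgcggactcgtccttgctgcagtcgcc
DUSP1: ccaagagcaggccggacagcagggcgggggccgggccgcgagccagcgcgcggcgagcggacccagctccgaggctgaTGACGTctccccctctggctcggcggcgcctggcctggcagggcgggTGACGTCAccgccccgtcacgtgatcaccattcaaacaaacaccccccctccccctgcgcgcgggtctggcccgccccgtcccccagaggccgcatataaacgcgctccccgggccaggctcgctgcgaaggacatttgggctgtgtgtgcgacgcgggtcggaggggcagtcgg

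None of the capitals fall in the promoters of DUSP10, MAP2K2 or MAP2K5 as printed, nor in the second start that RefSeq gives each of them. The AP-1 letters of MAP2K3 read TGAGTCA and begin 41 bases before its start, and MAP2K3 differed by -0.15. In DUSP1 the full element TGACGTCA begins 125 bases before the start and a further core 172 bases before it, and DUSP1 differed by -0.13.

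Other genes of the pathways were taken from 8 lists written from general knowledge, of which many members had no named probe set and were not analysed here. Upstream of the cascade, 23 of 32 genes of the list of RAS, RAF and adaptors had a named probe set. Of these, 15 passed the filter, with a median of 0.10, 3 higher by at least 0.32 log2 units and 0 lower. The control values of GAB1 and RRAS2 lay under the filter, so both passed through the array where they were higher, and KSR2, a RAF-like scaffold that was 1.49-fold lower (7.76 and 7.19), was dim and left out of these counts. GAB1, a docking protein of growth factor receptors, was 1.59-fold higher (7.71 and 8.38), RASA2, a RAS inactivator, was 1.31-fold higher and RRAS2, a RAS relative, 1.26-fold (7.89 and 8.22). HRAS had 8.83 and 8.56 and ARAF, a RAF kinase that activates MEK, 10.78 and 10.50, so they lay on the other side within 0.32 log2 units. The median span of this list was 87.6 kb. Of the receptor kinases 15 of 20 had a named probe set and 11 passed, with a median of 0.05. By the same threshold 4 were higher and 0 lower: EPHA2 (1.41-fold), AXL (1.33-fold), ROR1 (1.29-fold) and EGFR (1.27-fold). Of the dim receptors, FGFR1 (0.36) and KIT (-0.36) were past it in opposite directions. Their median span was 156.5 kb, and the part of span in these values was not tested.

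The list of activators and adaptors of JNK and p38 had a named probe set for 13 of 24 genes. All 13 passed the filter, with a median of -0.06. PAK2, a kinase activated by RAC and CDC42, was 1.37-fold higher and TNIK, a MAP4K relative, 1.33-fold, and 0 were lower by 0.32 log2 units. Of 17 inhibitors of the ERK arm other than DUSPs, 11 had a named probe set and 10 passed. Their median was -0.03. SPRY3 was 1.44-fold higher (8.74 and 9.26), whereas the better known Sprouty feedback genes SPRY2 (11.09 and 11.26) and SPRY4 (12.56 and 12.36) lay on opposite sides within 0.32 log2 units. Of 26 other phosphatases, 9 had a named probe set and 8 passed. Their median was 0.03, with SSH3, a cofilin phosphatase, 1.30-fold lower. Of the 8 RSK, MSK and MNK kinases, only the MNK genes MKNK1 and MKNK2 had a named probe set. Both passed, at -0.04 and -0.28, and the RSK and MSK genes were not analysed here.

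Downstream, 21 of 27 transcription factors that MAP kinases phosphorylate or induce had a named probe set, and 20 passed the filter. Their median was -0.12, and their median span 22.1 kb. Of the 20, 16 lay below 0, against 50.1% of all genes. By at least 0.32 log2 units, 3 were lower and 0 higher. FOSL1, the siRNA target, is one of the 3. SRF, which binds serum response elements with ERK-phosphorylated partners, had 10.72 and 10.24, 1.40-fold lower, and JUN, the JNK substrate, had 10.26 and 9.78, 1.40-fold lower. Of 28 transcripts known to follow ERK activity, 20 had a named probe set and 19 passed. Their median was -0.05, with 11 of the 19 below 0. The median span of these transcripts was 7.44 kb. The part of span in the values of the transcription factors and of these transcripts was not tested. VGF, a neuropeptide precursor, was 1.58-fold lower and LIF, a cytokine, 1.47-fold lower, whereas CXCL8, a chemokine, was 1.49-fold higher. Within this list DUSP4, DUSP5 and DUSP6 are counted again, and EGR1 (0.23), ETV4 (-0.29), ETV5 (0.12) and CCND1 (0.02) lay within 0.32 log2 units. For these lists too the background was 7.38% of all genes higher and 5.91% lower by that size.

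**Figure D4:**
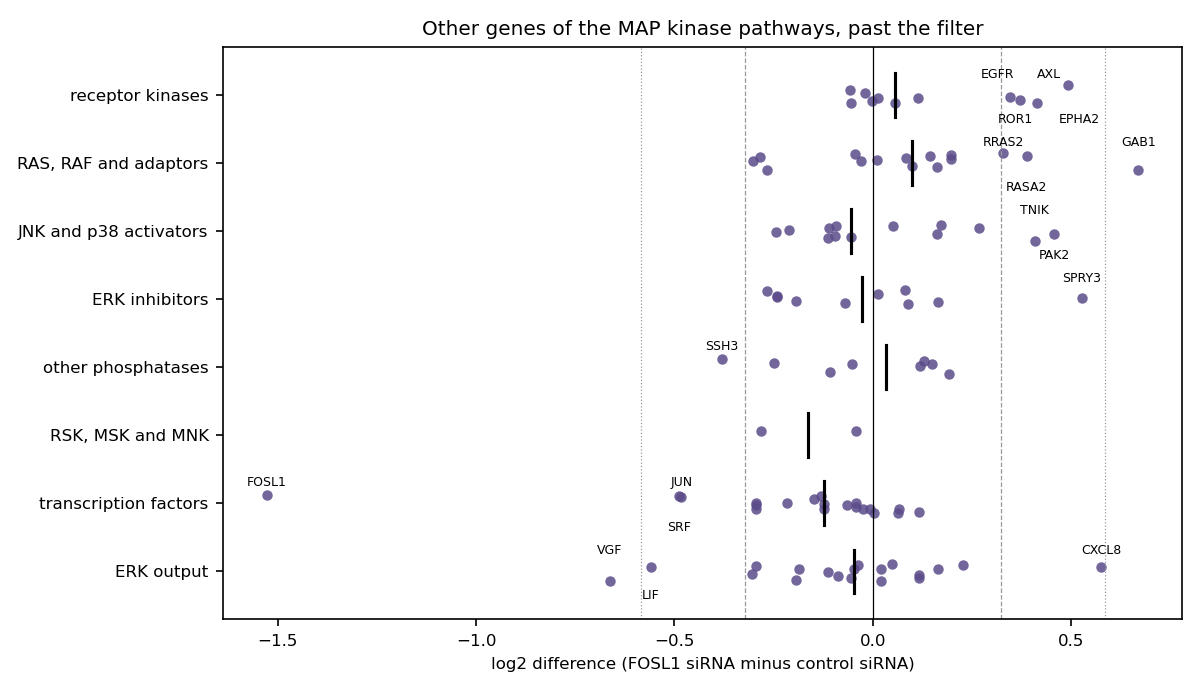
Log2 difference (FOSL1 siRNA minus control siRNA, x axis) of the genes past the filter in 8 lists of other pathway genes, 1 point per gene, with black bars at the list medians, dashed lines at 0.32 log2 units and dotted lines at 1.5-fold; genes past the dashed lines are named. List medians lie between -0.16 and 0.10, with FOSL1 itself at -1.53 as the lowest point.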

How the data were processed

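Gene expression was measured on whole-transcript Affymetrix arrays, from 100 ng of total RNA per array, per the labels' protocols. The deposited table gave 1 value for each of 53427 probe sets and 2 arrays. The authors deposited log2 values, as judged here by their range of 2.23 to 14.81; the log base, probe set summary, normalization and genome build are not given in the sources used here. Sorted, the deposited values of both arrays differ by at most 0.0301, so a shift in total RNA per cell cannot be seen. Scanner intensities were not used here. Precision is limited by the number of arrays.

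A probe table named 16098 probe sets and 14884 genes. All 72 genes described here matched the RefSeq gene table (GRCh38.p14) by Entrez ID. The genes of the rule that lack a named probe set, 8 of them protein-coding, were not analysed here. The filter on dim genes took the median over named genes of the mean log2 value. Differences, counts and medians were computed with Python 3.11.15, numpy 2.4.6 and pandas 2.3.3, and trends were removed with lowess (statsmodels 0.14.6, fraction 0.4). The functions were tested on simulated data. No test was run, since each condition had 1 array, and the groups came from the labels. Among the 72 genes, values on both arrays were given for those past the filter and at least 0.32 log2 units apart. They were also given for the core kinases and the classical phosphatases, and other genes were named to complete a role. For many genes of the 8 lists only a fold or a difference was given. The genes, lists, roles and thresholds were chosen with earlier results of these data known. The alternatives were 3 normalizations, removal of the span trend, no filter or a stricter filter, and a gene's mean over its probe sets.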

Additional observations from a re-analysis of the deposited data

How the results depend on the processing

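The median difference of the 53 genes lay between -0.06 and -0.02 under all alternatives run, and that of the DUSPs between -0.13 and -0.01. The median of the cascade genes, -0.04, was 0.0034 with the filter at the 75th percentile, where 15 cascade genes remained, and -0.0025 with no filter, over 48; at that size it has no direction. With that filter 25 genes were left, of which 0 were higher and 3 lower by at least 0.32 log2 units and 1 was at least 1.5-fold lower, against 4.49%, 3.65% and 0.62% of all genes at that filter. With the span trend removed, 1 was higher and 4 were lower by at least 0.32 log2 units, against 7.34% and 3.94% of all genes. With no filter, 1 of 72 was at least 1.5-fold higher (MAP2K6), against 1.91% of all genes. The other counts stayed within 1.5 times those of the report. Of 27 genes followed singly, 109 values could move under an alternative, and 0 moved beyond the probe set SD of 0.177; 26 others were fixed by construction, from genes with 1 probe set. The sign turned in 4, all near 0 in the report: DUSP5 was -0.10 as a mean of its probe sets, and without the span trend DUSP6 was 0.01, DUSP7 0.05 and MAPK9 -0.02. The arrays had nearly the same distribution, so scaling could move little, and this says nothing about another pair of cultures. Of the 72 genes, 66 had 1 probe set, 19 were dim, and 6 lay within 0.5 above the filter. No paired analysis was possible because each condition had 1 array.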
